A study of Drosophila melanogaster with 16 samples.

Results

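The genes of the Mediator complex were taken from both deposited tables by symbol, as every gene whose name begins with MED and a number, together with kto, skd, CycC and Cdk8. The rule found the same 28 genes in each table, out of 9731 genes measured in the brain-ring gland complex (BRGC) and 12509 in the rest of the body. Mediator is the large coactivator that links DNA-bound transcription factors to RNA polymerase II at promoters. Its head and middle modules contact the polymerase, MED14 joins the modules as a scaffold, the tail module receives many activators, and a detachable kinase module (kto, which is Med12, skd, which is Med13, and the pair Cdk8 and CycC) reversibly blocks polymerase binding. The modules are assigned here from the yeast and mammalian complexes. One further subunit, MED29, appears in the tables as ix and therefore lies outside the rule.

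RNA was sequenced from wandering last instar larvae of Drosophila melanogaster in 4 groups of 4 libraries, namely homozygous dfr14 BRGC, control BRGC, dfr14 body and control body. dfr14 carries a CRISPR/Cas9 deletion just downstream of the first stop codon of dfr (vvl), which encodes a POU/Oct transcription factor, and lacks the longer protein made by stop codon readthrough. Controls were w[1118], and all larvae were untreated. Bodies lacked BRGCs, mouth hooks and salivary glands according to the methods, and came from other larvae than the BRGCs. The sequenced dfr14 stock had been crossed to a balancer stock but not yet to w[1118], and larvae were matched only by the wandering stage, so the readthrough product, the genetic background and developmental timing cannot be told apart in any genotype difference. The sources used here do not say how many larvae each library pooled, so the p-values measure the spread between these libraries.

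The libraries held 17.1 to 30.1 M reads counted to genes (M, 1e6), and each of the 28 genes had at least 269 reads in every BRGC library and at least 89 in every body library. Transcripts of vvl itself ran from 90.5 to 116 CPM (reads per M reads, TMM-scaled) in dfr14 BRGCs and from 63.1 to 68.4 CPM in control BRGCs, and since the deletion changes translation the level does not check the labels. The 6 fat body genes summed to 91.0 to 336 CPM in dfr14 BRGCs and 58.1 to 7304 CPM in control BRGCs. The highest sums were 7304 CPM in control library 2 and 979.6 CPM in control library 4. In the body, control library 4 lacked reads for 1685 genes, while 32 to 189 genes were at 0 in each of the remaining body libraries. The 9 male germline and Y genes summed to 0.733 CPM in that library, with 7 of them at 0. Their sums were 46.7 to 508 CPM in the remaining body libraries, so male content differed between body libraries. The 5 salivary glue genes summed to 0.0974 to 0.339 CPM in dfr14 bodies and 2.92 to 10130 CPM in control bodies, although salivary glands were to be removed. Mitochondrially encoded transcripts took 6.72 to 12.7% of reads in dfr14 BRGCs and 2.09 to 4.45% in control BRGCs.

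In dfr14 BRGCs, MED16 fell to 61.0% of the control mean, and MED27, MED25 and MED17 fell to 76.3%, 76.7% and 81.5%. No subunit rose past the threshold (adjusted p under 0.05, limma on log2 CPM, p-values adjusted by Benjamini-Hochberg across the whole table). The 4 called members are 14.3% of the 28, whereas 5.9% of all BRGC genes were called lower and 10.1% higher. Fold changes were negative for 24 of the 28 members (85.7%) and for 52.1% of all genes, with a median log2 fold change of -0.17 over the members and -0.02 over all genes. In 9 members every dfr14 library lay below every control library, a pattern found in 9.79% of all genes, and in 1 member, MED26, every dfr14 library lay above, as in 13% of all genes. At an unadjusted p under 0.05, 10 members were lower and 1 was higher, beside 14.5% and 16.6% of all genes. MED16 and MED27 alone were called without control library 1 or control library 4 (2 members in place of 4). Over all genes the lower calls also fell in these fits, from 574 to 304 and 268.

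**Figure D1:**
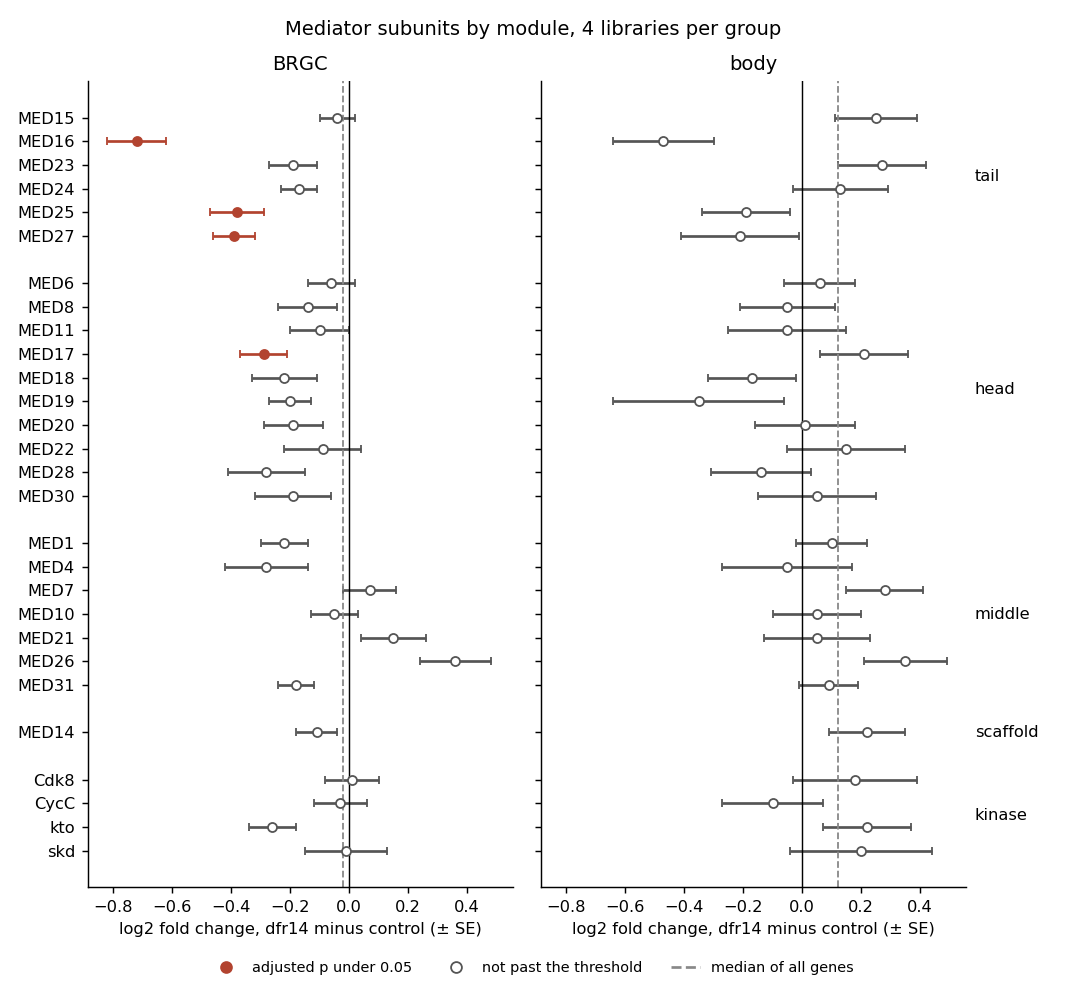
Log2 fold change of each of the 28 subunits, dfr14 minus control, with its standard error, in the BRGC (left panel) and the body (right panel), grouped by module. Filled points passed the threshold, which only MED16, MED27, MED25 and MED17 did, all in the BRGC, and dashed lines mark the median of all genes (-0.02 in the BRGC, 0.12 in the body).

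The tail module held 3 of the 4 called genes. All 6 of its measured genes had negative fold changes in the BRGC (median -0.29 on the log2 scale), and the mean log2 CPM of the 6 genes ran from 5.78 to 5.90 in dfr14 libraries and from 6.14 to 6.16 in control libraries, without overlap. That mean includes the 3 called genes, and such separation was not particular to the tail. The mean of all 28 members ran from 5.61 to 5.78 in dfr14 and from 5.83 to 5.88 in control BRGCs. For the general factor TFIID it ran from 5.55 to 5.73 in dfr14 and from 5.82 to 5.9 in control BRGCs. The means of the head, middle and kinase modules overlapped. MED16 is a tail subunit that in Drosophila cells serves as a coactivator of the immune factor Dif. It had 34.4, 30.5, 25.9 and 28.9 CPM in the 4 dfr14 BRGC libraries, against 49.97, 47.2, 47.1 and 51.8 CPM in the control libraries. The highest dfr14 library stood well below the lowest control library. The mean was 29.9 ± 3.53 CPM in dfr14 and 49.0 ± 2.3 CPM in control (SD, n = 4 each), a log2 fold change of -0.72 ± 0.10 (SE, limma adjusted p = 0.001). MED16 had the largest absolute fold change of the 28 genes in the BRGC.

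MED27 is a subunit at the junction of tail and head. It had 25.5, 23.3, 23.6 and 23.3 CPM in dfr14 BRGCs and 31.6, 31.2, 32.1 and 30.5 CPM in control BRGCs. The genotypes were separate and both groups were tight, with means of 23.9 ± 1.08 CPM in dfr14 and 31.4 ± 0.669 CPM in control (SD, n = 4 each). The log2 fold change was -0.39 ± 0.07 (limma adjusted p = 0.0072). MED25 is known in mammals as the target of the viral activator VP16. It had 48.0, 47.1, 39.0 and 47.2 CPM in dfr14 BRGCs and 64.1, 55.5, 56.7 and 60.1 CPM in control BRGCs. Here too no dfr14 library reached a control library, although dfr14 library 3 lay apart below the other dfr14 libraries. The gap between the genotypes was smaller than the range within either group. Means were 45.3 ± 4.22 CPM in dfr14 and 59.1 ± 3.85 CPM in control (SD, n = 4 each), and the log2 fold change was -0.38 ± 0.09 (limma adjusted p = 0.018). The MED25 call was lost without control library 1 or control library 4, with adjusted p-values of at most 0.056 over all single libraries left out.

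The remaining tail genes changed less. MED24 averaged 67.0 ± 1.05 CPM in dfr14 BRGCs and 75.2 ± 1.11 CPM in control BRGCs (SD, n = 4 each), again with separate genotypes, and did not pass (log2 fold change -0.17 ± 0.06, limma adjusted p = 0.081). MED23, a partner of MED16 in the tail, had a log2 fold change of -0.19 ± 0.08 (limma adjusted p = 0.16). MED15, which binds activators such as the lipid regulator SREBP in worms and mammals, averaged 112 ± 3.79 CPM in dfr14 BRGCs and 115 ± 3.14 CPM in control BRGCs (SD, n = 4 each), and the 95% interval of its log2 fold change ran from -0.17 to 0.09.

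**Figure D2:**
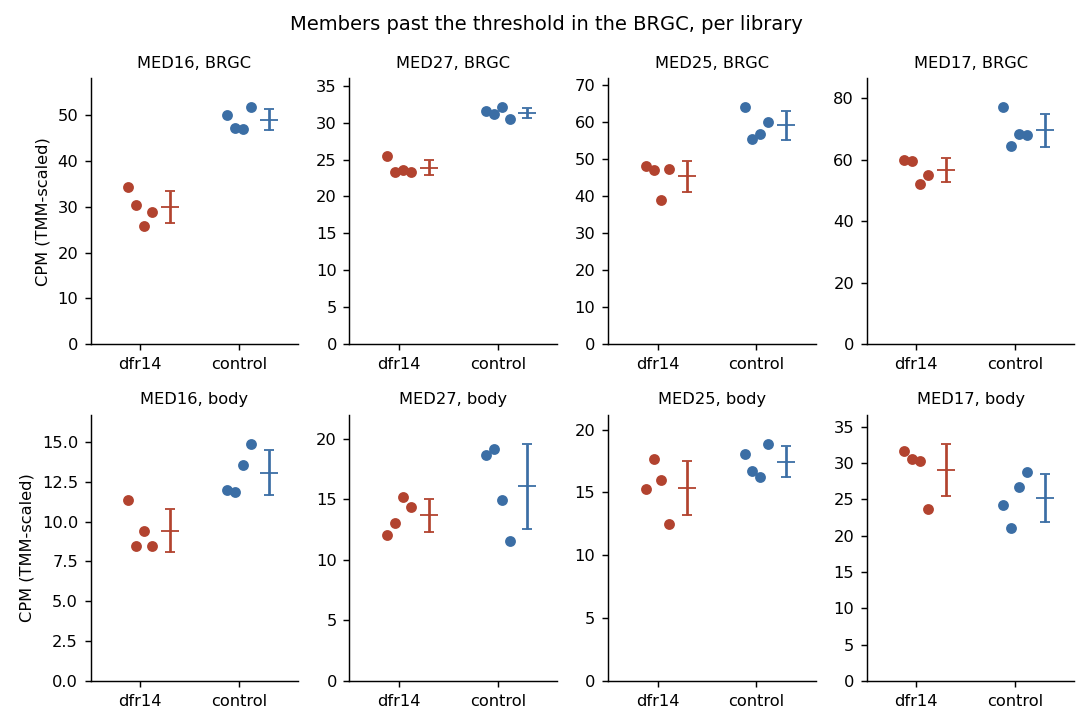
CPM of MED16, MED27, MED25 and MED17 in each library (points, dfr14 left and control right of each panel) with the mean and SD of the 4 libraries beside them, in the BRGC (upper row) and the body (lower row). In the BRGC no dfr14 library reaches a control library for any of the 4 genes, whereas in the body only MED16 keeps the genotypes apart (at most 11.4 CPM in dfr14 and at least 11.9 CPM in control).

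In the head module all 10 genes had negative fold changes in the BRGC, from -0.29 to -0.06 with a median of -0.19, and 1 passed. MED17, a core head subunit on which the polymerase contact depends, had 59.9, 59.7, 52.2 and 55.0 CPM in dfr14 BRGCs and 77.2, 64.6, 68.3 and 68.2 CPM in control BRGCs. The genotypes did not overlap, but the gap between them was smaller than the range within the control group. Means were 56.7 ± 3.77 CPM in dfr14 and 69.6 ± 5.37 CPM in control (SD, n = 4 each), with a log2 fold change of -0.29 ± 0.08 (limma adjusted p = 0.037). This call was the least stable of the 4: it was lost in 6 of the 8 fits that left out a library, those without control library 1, 3 or 4 or dfr14 library 1, 3 or 4 (adjusted p up to 0.10). MED19, a cofactor of Hox proteins in the fly, was the other head gene with separate genotypes, at 62.4 ± 4.15 CPM in dfr14 and 71.8 ± 3.10 CPM in control BRGCs (SD, n = 4 each, limma adjusted p = 0.09). The head subunits MED6, MED8, MED11, MED18, MED20, MED22, MED28 and MED30 did not pass, and the largest negative fold change among them was that of MED28 (-0.28 ± 0.13, limma adjusted p = 0.17).

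The middle module was mixed, with 4 negative and 3 positive fold changes in the BRGC (median -0.05) and no call. MED1, which in mammals binds nuclear hormone receptors, averaged 139 ± 12.4 CPM in dfr14 and 162 ± 5.13 CPM in control BRGCs (SD, n = 4 each), with separate genotypes and a log2 fold change of -0.22 ± 0.08 that did not pass (limma adjusted p = 0.081). MED31, one of the most conserved subunits, likewise had separate genotypes and missed the threshold (-0.18 ± 0.06, limma adjusted p = 0.09). MED26, which in mammals contacts elongation factors and TFIID, was the one member with separate genotypes in the other direction, with 392, 405, 485 and 454 CPM in dfr14 BRGCs and 271, 369, 384 and 337 CPM in control BRGCs. Its log2 fold change was 0.36 ± 0.12 (limma adjusted p = 0.073), and it passed only when control library 3 was left out (0.42 ± 0.12, limma adjusted p = 0.047). MED7 and MED21, which form the hinge of the middle module, had log2 fold changes of 0.07 ± 0.09 and 0.15 ± 0.11. MED4 and MED10, also of the middle module, stood at -0.28 ± 0.14 and -0.05 ± 0.08, and the scaffold MED14 at -0.11 ± 0.07 (limma adjusted p = 0.27).

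The kinase module did not pass for any of its 4 genes in the BRGC. The kinase Cdk8, which in the fly also acts on SREBP and the ecdysone receptor together with its cyclin, had 26.4, 25.3, 22.2 and 24.8 CPM in dfr14 BRGCs and 27.3, 23.6, 23.6 and 23.5 CPM in control BRGCs. CycC had 45.5, 46.2, 38.9 and 41.0 CPM in dfr14 BRGCs and 47.0, 43.8, 44.4 and 40.3 CPM in control BRGCs. The genotypes overlapped for both, and the 95% intervals of the log2 fold change, -0.20 to 0.21 for Cdk8 and -0.22 to 0.16 for CycC, leave room for changes of either sign, which also turned sign between alternative fits.

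kto and skd act together in the fly in Wingless signalling and in eye and wing development. skd had 306, 259, 299 and 308 CPM in dfr14 BRGCs and 222, 302, 369 and 306 CPM in control BRGCs, and the control libraries spanned the whole dfr14 range (log2 fold change -0.01 ± 0.14, limma adjusted p = 0.96). kto had 163, 128, 139 and 153 CPM in dfr14 BRGCs and 169, 174, 172 and 181 CPM in control BRGCs. Every dfr14 library lay below every control library for kto, unlike for its partner skd. Its log2 fold change of -0.26 ± 0.08 did not pass (limma adjusted p = 0.06) with all libraries, but did without dfr14 library 1 (-0.32 ± 0.08, limma adjusted p = 0.04).

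**Figure D3:**
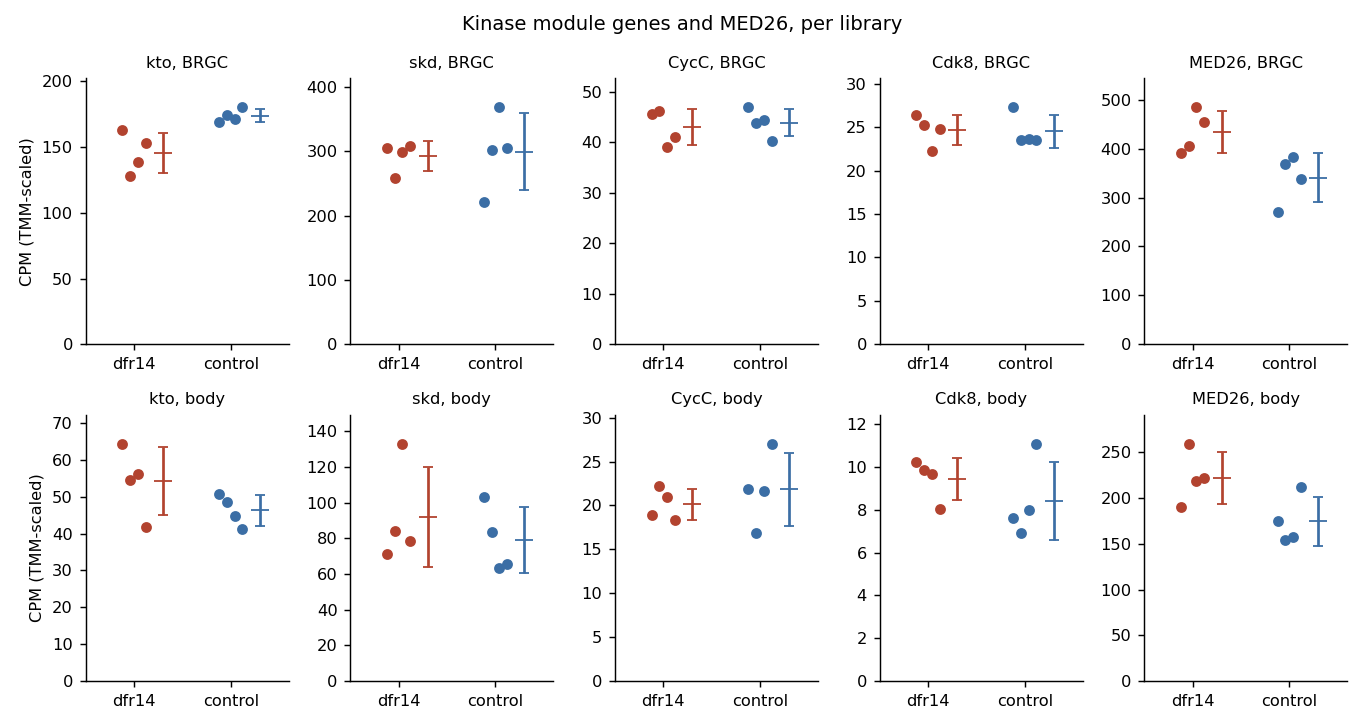
CPM of kto, skd, CycC, Cdk8 and MED26 in each library (points, dfr14 left and control right of each panel) with the mean and SD of the 4 libraries beside them, in the BRGC (upper row) and the body (lower row). kto lies lower and MED26 higher in every dfr14 BRGC library than in any control BRGC library, and skd, CycC and Cdk8 overlap.

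In the body no subunit passed the threshold in either direction (0 of 28, limma, beside 0.328% of all body genes called lower and 1.09% called higher). At an unadjusted p under 0.05 the counts were 1 lower (MED16) and 1 higher (MED26) of the 28, beside 3.56% and 9.9% of all genes. Limma with voom weights also called 0 members, beside 13 lower and 49 higher over all body genes. The spread between body libraries was wider than in the BRGC, with a median standard error of the log2 fold change of 0.16 over the members against 0.09 in the BRGC. MED16 had 11.4, 8.47, 9.39 and 8.48 CPM in dfr14 bodies and 12, 11.9, 13.5 and 14.9 CPM in control bodies. It was the one member whose dfr14 libraries all lay below the controls, as in 2.53% of all body genes, although dfr14 library 1 and control library 2 nearly met. Means were 9.43 ± 1.37 CPM in dfr14 and 13.1 ± 1.44 CPM in control (SD, n = 4 each), with a log2 fold change of -0.47 ± 0.17 that did not pass (limma unadjusted p = 0.029, adjusted p = 0.30).

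The other 3 genes called in the BRGC overlapped between the genotypes in the body. MED27 had 12.1, 13.1, 15.2 and 14.3 CPM in dfr14 bodies and 18.7, 19.1, 14.9 and 11.6 CPM in control bodies, so that the control group spanned more than the dfr14 range. MED25 had 15.2, 17.7, 15.9 and 12.5 CPM in dfr14 bodies and 18.1, 16.7, 16.2 and 18.9 CPM in control bodies. Both fold changes were negative and within the spread, at -0.21 ± 0.20 for MED27 (limma adjusted p = 0.81) and -0.19 ± 0.15 for MED25 (limma adjusted p = 0.72). With male transcripts as a covariate they were -0.26 ± 0.12 for MED27 (limma adjusted p = 0.25) and -0.17 ± 0.13 for MED25 (limma adjusted p = 0.47). MED17 stood the other way, with 31.7, 30.6, 30.3 and 23.7 CPM in dfr14 bodies and 24.2, 21.1, 26.7 and 28.8 CPM in control bodies (log2 fold change 0.21 ± 0.15, limma adjusted p = 0.68). Only dfr14 library 4 lay within the range of the control group.

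MED26 had 190, 260, 218 and 222 CPM in dfr14 bodies and 175, 154, 158 and 212 CPM in control bodies, a log2 fold change of 0.35 ± 0.14 (limma unadjusted p = 0.039, adjusted p = 0.34). The point estimate was close to that of the BRGC. MED7 was the one member with every dfr14 body library above every control library, as in 6.61% of all body genes, at 16.7 ± 0.552 CPM in dfr14 and 13.7 ± 0.935 CPM in control (SD, n = 4 each, limma adjusted p = 0.39). Of the kinase module, kto had 64.5, 54.7, 56.3 and 41.9 CPM in dfr14 bodies and 50.7, 48.7, 44.9 and 41.2 CPM in control bodies. skd had 71.2, 84.0, 133 and 78.8 CPM in dfr14 bodies and 103, 83.4, 63.2 and 65.6 CPM in control bodies, with library 3 of dfr14 and library 1 of control at the top. The genotypes overlapped for both. Cdk8 had 10.2, 9.84, 9.69 and 8.02 CPM in dfr14 bodies and 7.63, 6.93, 7.99 and 11.1 CPM in control bodies, and CycC had 19, 22.2, 21.0 and 18.3 CPM in dfr14 bodies and 21.9, 16.8, 21.7 and 27 CPM in control bodies. These also overlapped, and the 4 kinase genes had limma adjusted p-values of 0.65 to 0.96.

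Which way the body values lean as a group depended on the scaling. Under TMM scaling 18 of the 28 members had positive fold changes (median 0.05) while the median of all body genes was 0.12. Negative fold changes made up 35.7% of the members and 37% of all body genes, so the members were near the share of the whole table. Scaling by library size alone moved the body genes by a median of -0.24 on the log2 scale, and 24 members were then negative. In the BRGC the same change moved all genes by a median of -0.08, 26 members were negative, and 10 were called lower in place of 4, namely MED1, MED16, MED17, MED19, MED23, MED24, MED25, MED27, MED31 and kto. Under that scaling 10.2% of all BRGC genes were called lower and 8.04% higher. The share of lower calls among all calls was 36.9% under TMM and 55.8% under library size for BRGC genes, and 23.2% and 41.8% for body genes.

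Whether the genotype difference itself differed between the tissues was tested over the 9256 genes in both tables, as the body difference minus the BRGC difference. No member passed (0 of 28, limma, beside 1.29% of these genes). At an unadjusted p under 0.05 there were 6 members, MED17, kto, MED23, MED31, MED14 and MED1, beside 14.1% of all genes, each with the higher fold change in the body. This test was run under TMM scaling alone, where the median of all genes was 0.12 in the body and -0.02 in the BRGC. Scaling by library size moved body genes by -0.24 and BRGC genes by -0.08, so the size of these differences is tied to the scaling. MED17 was farthest apart among them, at 0.21 in the body and -0.29 in the BRGC, a difference of 0.50 ± 0.16 (limma adjusted p = 0.17). Without dfr14 body library 4, kto (0.60 ± 0.14, limma adjusted p = 0.04) and MED14 (0.44 ± 0.11, limma adjusted p = 0.049) passed, and with all libraries they stood at 0.48 ± 0.17 and 0.33 ± 0.14 (limma adjusted p = 0.21 and 0.31). Calls rose over all shared genes too in that fit. It called 140 genes with the higher and 66 with the lower fold change in the body, against 60 and 59 with all libraries. MED16, at -0.47 in the body and -0.72 in the BRGC, differed by 0.25 ± 0.18 between the tissues (limma adjusted p = 0.57). Of the 28 members, 10 were negative in both tissues, 14 were negative in the BRGC and positive in the body, 4 were positive in both, and 0 were positive in the BRGC alone.

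MED16 was set against the rest of the complex within each library, as its log2 CPM minus the mean log2 CPM of the other 27 members. This is a description without a test, since the contrast was proposed with the fall of MED16 known. In the BRGC the difference was -0.69, -0.87, -0.95 and -0.87 in the dfr14 libraries and -0.23, -0.32, -0.28 and -0.19 in the control libraries. MED16 lay farther below the other subunits in every dfr14 library than in any control library. The group means were -0.84 ± 0.11 in dfr14 and -0.26 ± 0.06 in control (SD, n = 4 each), a shift of -0.59, while the mean of the other 27 members was 5.74 ± 0.07 in dfr14 and 5.87 ± 0.02 in control, a shift of -0.13. When each of the 28 genes was measured against the other 27 in the same way, MED16 had the most negative shift in the BRGC, followed by MED27 (-0.25), MED25 (-0.24) and MED17 (-0.15), and MED26 had the most positive (0.53). The genotypes were separate for 4 members that were lower in dfr14 and 3 that were higher, so separation by this measure was not particular to MED16.

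In the body the difference was -1.08, -1.54, -1.40 and -1.43 in the dfr14 libraries and -0.98, -0.91, -0.73 and -0.73 in the control libraries. The groups were again separate, with dfr14 library 1 nearest to the controls. The shift was -0.53 (means -1.36 ± 0.20 in dfr14 and -0.84 ± 0.13 in control, SD, n = 4 each), whereas the mean of the other members shifted by 0.06. With each gene measured in the same way, MED16 had the most negative shift in the body, followed by MED19 (-0.41, with overlapping genotypes). The genotypes were separate for 2 members that were lower in dfr14, MED16 and MED18 (-0.22), and for 1 that was higher, MED7 (0.25). In terms of reads, MED16 made up 1.35 ± 0.154% of all reads of the 28 genes in dfr14 BRGCs and 2.12 ± 0.175% in control BRGCs, and 0.976 ± 0.176% in dfr14 bodies and 1.48 ± 0.156% in control bodies (SD, n = 4 each).

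**Figure D4:**
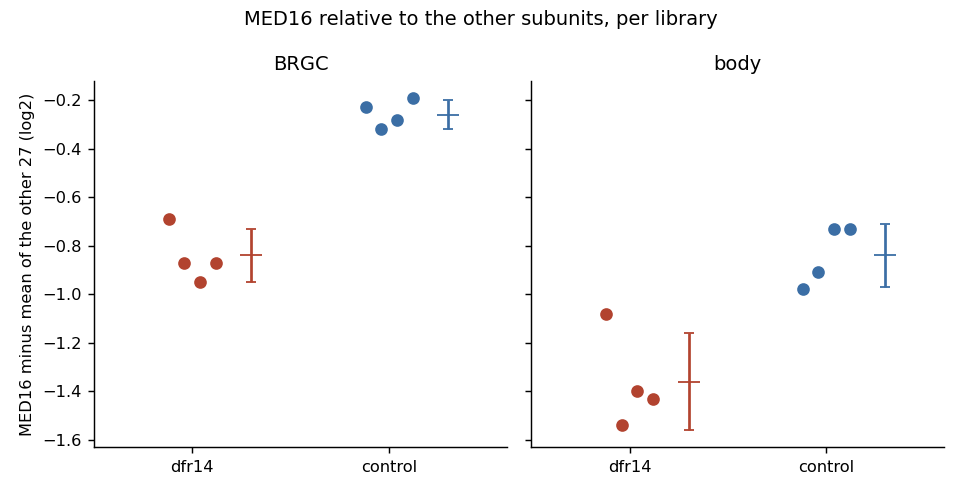
Log2 CPM of MED16 minus the mean log2 CPM of the other 27 members in each library (points, dfr14 left and control right), with the mean and SD of the 4 libraries beside them, in the BRGC and the body. In both tissues every dfr14 library lies below every control library, and the group means differ by -0.59 (BRGC) and -0.53 (body).

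Because transcripts differ in length, levels were compared between subunits as CPM per kb of annotated exon. In control BRGCs the order ran from MED10 (72.1 ± 4.94), MED26 (67.1 ± 9.84), MED31 (65.7 ± 2.84), MED21 (64.8 ± 7.85) and MED11 (63.7 ± 5.75) down to MED16 (17.8 ± 0.835), MED4 (17.2 ± 1.66) and Cdk8 (16 ± 1.23), all in CPM per kb (SD, n = 4). Neighbours at both ends did not differ beyond their spread. The same 5 genes headed the order in control bodies, where MED16 was last at 4.75 ± 0.521 CPM per kb. In dfr14, MED16 was the lowest subunit in both tissues, at 10.9 ± 1.28 CPM per kb in the BRGC and 3.42 ± 0.497 CPM per kb in the body. The next lowest in dfr14 BRGCs was MED4 at 14.2 ± 2.32 CPM per kb, and in dfr14 bodies MED25 at 5.55 ± 0.776 CPM per kb. The tables were normalized separately, so levels are ordered here only within a tissue.

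**Figure D5:**
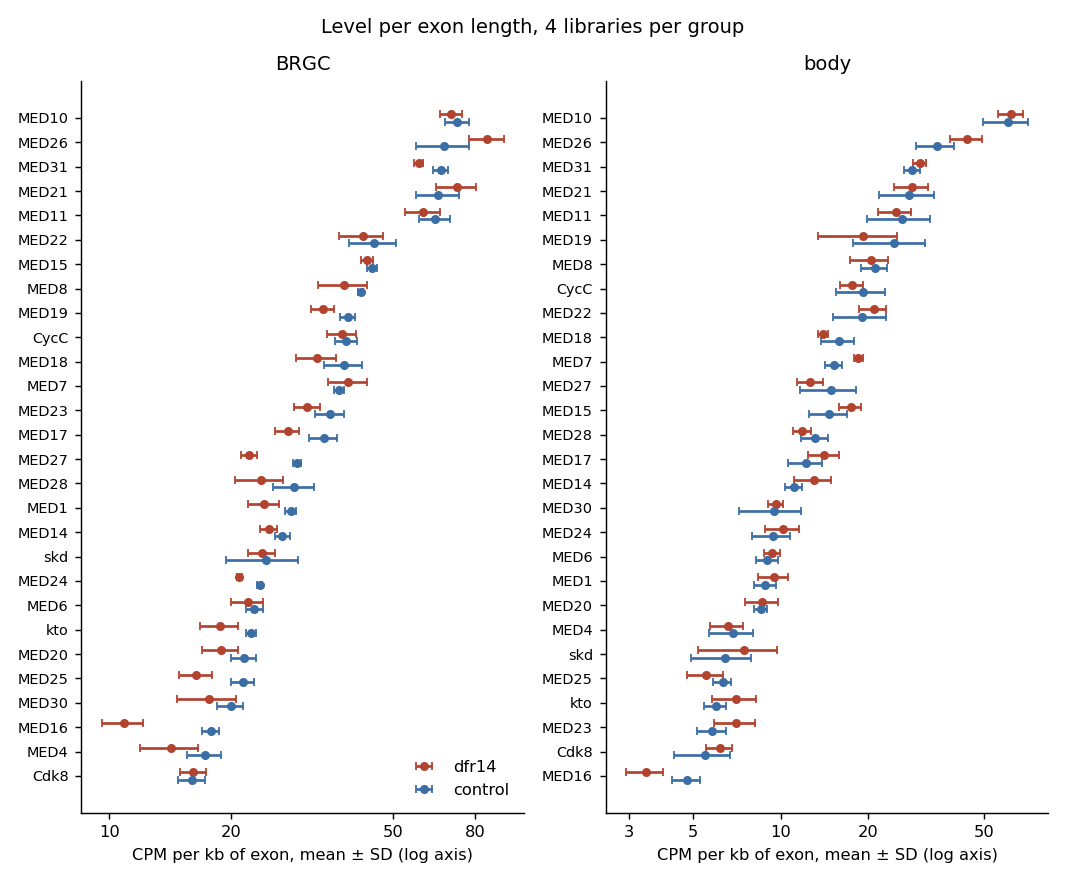
Mean and SD over 4 libraries of CPM per kb of exon (log axis) for each subunit in dfr14 (upper point of each pair) and control (lower point), in the BRGC and the body, ordered by the control level. MED16 is the lowest subunit in dfr14 in both tissues, at 10.9 CPM per kb in the BRGC and 3.42 in the body.

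The 4 called genes do not lie together in the genome. In the BDGP6 annotation MED16 (FBgn0034707) lies on chromosome arm 2R from 22183138 to 22185892 on the plus strand, and its annotated exons cover the whole of that span (2755 bases). MED27 (FBgn0037359, 5655139 to 5656336), MED17 (FBgn0038578, 18189072 to 18191265) and MED25 (FBgn0038760, 20008947 to 20011712) all lie on the plus strand of 3R. Of the 28 members, 12 are on 3L, 8 on 3R, 3 on 2R, 2 each on 2L and X, and 1, MED26, on chromosome 4. MED16 shares no exon with another gene, and the measured genes next to it, CG11275 and Vps35, had BRGC log2 fold changes of 0.05 ± 0.18 and 0.02 ± 0.07. Swim, the gene after Vps35, rose (0.70 ± 0.14, limma adjusted p = 0.0098), and near MED25 the neuroblast gene mira fell (-0.98 ± 0.14, limma adjusted p = 0.0015). Near MED17, Arp5 on the same strand fell as well (-0.41 ± 0.10, limma adjusted p = 0.021).

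The strand setting of the read counting was not given in the sources used here, so counts over exons shared by opposite strands are uncertain. MED27 shares 101 exon bases with CG2182 on the opposite strand, whose BRGC log2 fold change was -0.06 ± 0.08, and MED17 shares 22 with CG14313. Of all 28 members, 13 share exon bases with a gene on the opposite strand and 1 (MED31, with slx1) with a protein-coding gene on its own strand. MED26 shares 40 of its 5073 exon bases with an annotated transposable element. Whether reads from other copies of that element were counted to MED26 was not tested. ix, the MED29 gene outside the rule, averaged 19.1 ± 2.2 CPM in dfr14 BRGCs and 20.9 ± 1.55 CPM in control BRGCs (SD, n = 4 each), a log2 fold change of -0.13 ± 0.11 (limma adjusted p = 0.44).

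Other parts of the transcription machinery were read from the same BRGC fit, in which 5.9% of all genes were called lower and 10.1% higher. Of the general factor TFIID, which binds the core promoter, 3 of 15 genes fell and 0 rose, with a median log2 fold change of -0.25 and 13 negative values. The 3 were Taf2 (-0.28 ± 0.06, limma adjusted p = 0.012), Taf6 (-0.32 ± 0.08, limma adjusted p = 0.024) and Taf7 (-0.27 ± 0.07, limma adjusted p = 0.034). Of 11 measured subunits of RNA polymerase II, 1 fell (Rpb5, -0.32 ± 0.09, limma adjusted p = 0.037) and 1 rose (Rpb12, 0.42 ± 0.09, limma adjusted p = 0.015), and the median was 0.0. Of 13 genes of pausing and elongation, 3 fell and 2 rose (median -0.17). Nelf-A (-0.35 ± 0.08, limma adjusted p = 0.014) and TH1 (-0.29 ± 0.07, limma adjusted p = 0.021), both subunits of the pausing factor NELF, fell, while another NELF subunit, Nelf-E, rose (0.39 ± 0.08, limma adjusted p = 0.014). NELF-B and Su(Tpl), a factor of the super elongation complex, were the other genes to pass, the first lower and the second higher. None of the 16 measured genes of TFIIA, TFIIB, TFIIE, TFIIF and TFIIH passed (median -0.12, 13 negative, limma adjusted p of at least 0.069). In the body none of these 55 genes passed, with limma adjusted p-values of 0.17 or more. Only 0.328% of all body genes were called lower and 1.09% higher.

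Markers of particular cells moved with the genotype in the BRGC, and in bulk tissue fewer cells of a type and less RNA per cell cannot be told apart. The counts below stand beside 5.9% of all BRGC genes called lower and 10.1% called higher. All 5 neuroblast genes (mira, dpn, ase, wor and insc) fell, with summed levels of 134 to 170 CPM in dfr14 BRGCs and 212 to 280 CPM in control BRGCs and none at 0. Of 6 prothoracic gland genes, which make ecdysone, 4 (dib, sad, nvd and spok) fell, with sums of 226 to 301 CPM in dfr14 and 409 to 499 CPM in control. None of 5 neuronal genes passed, with sums of 872 to 1527 CPM in dfr14 and 1024 to 1390 CPM in control. Of 4 hemocyte genes 1 rose, NimC1 (2.04 ± 0.23, limma adjusted p = 0.00036), while the sum of the list was 595 to 843 CPM in dfr14 and 579 to 839 CPM in control. Of 5 muscle genes 1 rose, wupA (0.74 ± 0.21, limma adjusted p = 0.04), with sums of 117 to 170 CPM in dfr14 and 85.5 to 146 CPM in control. None of the 4 glial, 2 corpora allata and cardiaca or 6 fat body genes passed. The part of these cell types in the Mediator values was not tested. The same 4 subunits were called without control library 2, and only MED16 and MED27 without control library 4, the 2 libraries with the highest fat body sums. Over all genes 452 and 268 were called lower in these fits, against 574 with all libraries.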

How the data were processed

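Poly-A RNA of 16 libraries (4 per group) was sequenced with a stranded kit. Trimming (Trim Galore), alignment (STAR) and counting per gene (featureCounts, Ensembl BDGP6) were done by the authors; versions and the strand setting are not given in the sources used here. The deposited log2 values are log2 CPM that the authors made with edgeR from TMM-scaled library sizes and a prior count of 2.0. The prior count pulls fold changes of genes with few reads towards 0. Taking the prior count off gave whole reads for 100% of values (within 0.001), which gave depth and CPM. A further 16 columns in all, which gave each library another set of values, were not used in the fits. Columns holding the authors' own fold changes, p-values and means were not used in them either. Groups follow the sample titles, since the genotype tag of the records follows the tissue instead. The numbers given to libraries are only their positions among the columns.

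Each tissue was fitted alone with limma 3.58.1 (R 4.3.3, intensity trend, two-sided) over all 9731 or 12509 genes, and the difference between tissues over the 9256 shared genes. The script was tested on simulated data. Members, lists and contrasts were chosen with earlier results of these data known. The named genes were MED16, every member past the threshold, the 4 kinase module genes and, from each machinery list, up to 3 genes of smallest p. MED26, NELF-B, Su(Tpl) and the remaining members given with values were added after their values were seen. Errors are SD of CPM or SE of the fit. Alternatives were library size alone, median-of-ratios factors, a prior count of 0.5, at least 10 reads in 4 libraries, voom weights, male transcripts as a covariate (body) and each library left out. The test between tissues was refitted only with a prior count of 0.5 and with each library left out. Positions come from a BDGP6 gene annotation. Promoter and protein sequences were not analysed here. Python 3.11.15, pandas 2.3.3, scipy 1.17.1 and matplotlib 3.10.9 were used.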

Additional observations from a re-analysis of the deposited data

Results flagged for a closer look

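In 5 of 112 groups of 4 libraries (28 genes, 4 groups), 1 library lay far from the other libraries of its group by Dixon's criterion for 4 samples, which chance meets in about 1 in 20 groups. Values are log2 CPM. MED25 was 5.29 in dfr14 BRGC library 3, against 5.56 to 5.59 in the other dfr14 BRGC libraries. MED27 was 4.68 in dfr14 BRGC library 1, against 4.55 to 4.56. Cdk8 was 4.78 in control BRGC library 1, against 4.56 to 4.57. MED17 was 4.57 in dfr14 body library 4, against 4.92 to 4.99. MED30, a head subunit, was 3.28 in dfr14 body library 2, against 3.45 to 3.48.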

How the results depend on the processing

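No paired analysis was possible because the columns of the deposited tables carry no replicate numbers. In the BRGC, MED16 kept its direction and passed under all 13 alternatives (log2 fold change -0.80 to -0.65, limma adjusted p 0.00094 to 0.0059), and so did MED27 (-0.47 to -0.38, limma adjusted p 0.005 to 0.031). MED25 lost its call in 2 and MED17 in 6 of 8 fits without 1 library. Leaving out each library gave 2 to 4 members called lower and 0 to 1 called higher in the BRGC, and 0 to 2 called in the test between tissues. Over all BRGC genes these fits called 268 to 650 lower, against 574 with all libraries. The 2 members in the test between tissues came without dfr14 body library 4. That fit called 66 shared genes lower and 140 higher in the body, against 59 and 60 with all libraries. Scaling by library size alone gave 10 members called lower in the BRGC, where it called 10.2% of all genes lower against 5.9% under TMM. It also turned the sign of 2 members in the BRGC, among them Cdk8 (-0.07), and of 14 in the body, among them MED17 (-0.03), Cdk8 (-0.05), kto (-0.02) and skd (-0.04), while median-of-ratios factors turned 6 in the body. Voom weights turned Cdk8 in the BRGC to -0.002. Without single libraries, the BRGC values ran from -0.02 to 0.06 for Cdk8, from -0.07 to 0.01 for CycC and from -0.15 to 0.1 for skd, and the body value of CycC from -0.22 to 0.006. The shift of MED16 against the other subunits ran from -0.67 to -0.55 in the BRGC and from -0.62 to -0.40 in the body over 10 alternatives each. In the body 0 members passed under any of 14 alternatives, including the fit with male transcripts as a covariate and the fit without control library 4, in which MED16 stayed negative. Few genes passed in any of these body fits. Over all 12509 body genes they called 13 to 249 lower and 49 to 362 higher.

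With 4 libraries per group the 95% intervals of the body were wide. Those of MED16 (-0.88 to -0.06), MED27 (-0.68 to 0.26) and MED25 (-0.55 to 0.16) held their BRGC fold changes and that of MED17 (-0.15 to 0.56) did not, so a missed threshold in the body does not show that a subunit was unchanged.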
